A study of Homo sapiens with 24 samples.

Results

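The expression profile of U87MG, an established human glioblastoma cell line, was compared between a “WWOX” variant transduced to overexpress WWOX and a “Vec” control variant. The genes considered were the autosomal genes that reached 5 tags per 1000000 tags on genes (CPM) in at least 1 of the 6 U87MG libraries, which gave 9695 of the 43037 genes in the deposited table. Expression had been measured with Cap Analysis of Gene Expression sequencing (CAGE-Seq), which captures the capped 5′ ends of transcripts and counts each transcript by a tag at its start. The series holds U87MG, T98G, U251MG, and DBTRG-05MG, each as “Vec” and “WWOX” with 3 libraries, and the libraries of the other lines served to choose the genes tested, to estimate the spread, and for comparisons between lines. Both U87MG variants were grown in Eagle's medium with heat-inactivated serum, stably transduced with lentivirus, and kept by puromycin selection. The study calls this selection clonal. The “WWOX” variant received a vector in which a CMV promoter drives the transgene beside green fluorescent protein, whereas the “Vec” variant received Puro-Blank particles. The labels give no clone numbers and no further alleles, so how many transduced cells founded each variant is not known, and a difference between the variants cannot be told apart from one between the cells that founded them. The study calls the libraries of a variant biological triplicates.

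WWOX encodes a WW domain-containing oxidoreductase that binds proline-rich motifs of signaling proteins and transcription factors and is regarded as a tumor suppressor. Glioblastoma cells live in a matrix that they partly make themselves, and their adhesion, contractility, and secreted growth factors shape invasion. CAGE tags mark the promoter activity of these genes, so a gene that is silent in one variant and read in the other stands out clearly.

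Depth ranged from 11807721 to 16343729 tags among the 6 libraries, so 3 tags over the 3 libraries of a variant correspond to 0.0727 CPM in “Vec” and 0.0700 CPM in “WWOX.” Intervals given for ratios of tags cover counting error only. CDKN2A and MTAP, which lie in the deletion on the short arm of chromosome 9 known for U87MG, had 0 tags in all 6 libraries, and CDKN2B had 1. VIM, CD44, and EGFR were read in all libraries, GFAP ranged from 2.63 to 7.10 CPM, and PROM1 and PTPRZ1 were at 0. Among 6 lymphocyte markers, 5 were at 0 in all libraries, and 5 of 8 microglia and macrophage markers were at 0 as well, whereas CSF1R ranged from 6.06 to 14.7 CPM. “Vec” library 1 stood nearer to “WWOX” than the other “Vec” libraries in several pathways, with values given below. Pearson's r over genes was 0.9394 and 0.9517 between “Vec” 1 and the other “Vec” libraries and 0.9710 between “Vec” 2 and 3, genes not being independent replicates. “WWOX” 1 stood apart from its group in the same way. Its r was 0.9637 with “WWOX” 2 and 0.9349 with “WWOX” 3, against 0.9777 between “WWOX” 2 and 3.

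Sequences around annotated starts are shown for a pair of genes that rose from low levels, NDN and NLRP12, and a pair that fell, EMILIN2 and TWIST2. EMILIN2 kept 5.38 CPM in “WWOX” 1. CAGE reads transcript starts, but the deposited values are per gene, so which start was read is not known. Each is 300 bases from RefSeq (GRCh38.p14), 250 before and 50 after the start, printed 5′ to 3′ on the strand of the gene, and capitals mark CG dinucleotides. NDN lies at chr15:23687256-23687555, minus strand. NLRP12 lies at chr19:53824265-53824564, minus strand. EMILIN2 lies at chr18:2846756-2847055, plus strand. TWIST2 lies at chr2:238847835-238848134, plus strand.
NDN: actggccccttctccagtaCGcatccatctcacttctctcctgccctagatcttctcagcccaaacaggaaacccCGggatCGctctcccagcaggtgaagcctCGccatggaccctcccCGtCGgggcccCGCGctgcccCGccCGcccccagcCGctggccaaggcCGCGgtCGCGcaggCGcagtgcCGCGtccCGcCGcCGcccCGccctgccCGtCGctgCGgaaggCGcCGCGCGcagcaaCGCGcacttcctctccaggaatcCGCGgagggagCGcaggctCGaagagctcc
NLRP12: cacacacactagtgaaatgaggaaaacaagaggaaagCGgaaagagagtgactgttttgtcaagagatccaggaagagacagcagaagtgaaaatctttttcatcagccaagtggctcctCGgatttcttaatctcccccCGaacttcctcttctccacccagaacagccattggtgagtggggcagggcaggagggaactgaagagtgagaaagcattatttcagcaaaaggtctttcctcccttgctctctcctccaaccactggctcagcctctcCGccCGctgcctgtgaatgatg
EMILIN2: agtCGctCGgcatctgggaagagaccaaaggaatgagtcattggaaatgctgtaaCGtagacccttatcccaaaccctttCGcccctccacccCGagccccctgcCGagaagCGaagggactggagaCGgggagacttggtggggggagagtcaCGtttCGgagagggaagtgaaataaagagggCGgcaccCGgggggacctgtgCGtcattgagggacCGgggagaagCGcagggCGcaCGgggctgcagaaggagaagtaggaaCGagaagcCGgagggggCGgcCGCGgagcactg
TWIST2: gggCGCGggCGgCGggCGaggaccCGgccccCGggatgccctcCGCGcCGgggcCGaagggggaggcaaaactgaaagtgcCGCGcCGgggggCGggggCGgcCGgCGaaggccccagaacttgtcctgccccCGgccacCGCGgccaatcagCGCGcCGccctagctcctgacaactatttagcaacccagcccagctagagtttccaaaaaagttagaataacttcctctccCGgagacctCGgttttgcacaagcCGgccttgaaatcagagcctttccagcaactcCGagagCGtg
NDN held 35 CG dinucleotides, NLRP12 5, EMILIN2 22, and TWIST2 29, against a median of 14 (quartiles 4 and 28) over 35116 promoters in the table. RINL and H2BC6, which fell and are not printed, held 6 each, so starts above and below the median occurred in both directions. Of the 30 genes named below for their size of change, 23 had a single entry in the table. The TATA motif TATAAA, read on both strands, was present in 4 of these 23 and in 11.5% of all promoters, and the AP-1 motif TGACTCA in 1 of 23, EMILIN2, and in 4.95% of all.

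WWOX itself was read at 40.1, 33.9, and 39.8 CPM in “Vec” and at 66.0, 61.3, and 61.0 CPM in “WWOX.” The groups did not overlap, and the mean rose from 37.9 ± 3.48 to 62.7 ± 2.79 CPM (SD, n = 3), a ratio of 1.65. In the limma model of all genes, the log2 fold change (log2FC, “WWOX” minus “Vec,” on the scale of log2(CPM + 0.5), which understates changes of low genes) was 0.66 with a standard error (SE) of 0.222 and an adjusted p of 0.137, which did not pass the threshold. The exact two-sided permutation test of the 6 libraries gave p = 0.10, the smallest that 3 against 3 libraries allow. A correction of the libraries for GC content and transcript length gave 0.60 with an adjusted p of 0.0330 in limma. It was the only one of the alternatives described below in which WWOX passed. With the replicate number added as a block, the same correction gave 0.125. The other adjusted p-values reached from 0.0633 (DESeq2) to 0.461 (limma without “Vec” 2). The study reports a Western blot of extracted protein as its evidence of efficient transduction, whereas these tags measure RNA. The gene (chr16:78099400-79212667, plus strand) is read here without a distinction between the transgene and the cell's own copies. As a CMV promoter drives the transgene, whether tags at its start were counted for WWOX is not known. Among the 21 genes of WWOX and its named binding partners that were measured, none passed the threshold, and EZR, the membrane linker ezrin, had the smallest p after WWOX itself (log2FC -0.75, adjusted p = 0.20).

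Of the 9695 genes, 291 (3.0%) passed an adjusted p of 0.05 in the limma model, 128 higher (1.32%) and 163 lower (1.68%) in “WWOX.” An unadjusted p under 0.05 was found in 1083 genes. Libraries of the variants did not overlap in 274 of the 291 and in 16.9% of all genes. The median log2FC was 1.75 among the genes that rose, -1.69 among those that fell, and -0.02 over all genes. There were 263 protein-coding genes, 22 long noncoding RNAs, and 6 pseudogenes among the 291. Some genes entered the comparison through one variant alone, 350 that reached 5 CPM only in “Vec” libraries and 422 only in “WWOX” libraries, and 90 and 79 of these fell and rose, respectively. The calls were repeated under 19 alternatives, 6 of which left out a library. Since filters on low values were repeated too, 185 of the 291 genes were tested in all 19 and the others in at least 17. In all alternatives that tested them, 110 genes (47 higher, 63 lower) kept their call, 68 of which were tested in all 19, and no called gene changed direction where it was tested. Of the 1741 genes held by 65 lists of pathways and gene families, 5.51% passed, and each list's count is to be read beside the shares over all genes. Where a gene named below lost its call on leaving out a single library, the libraries are given with the range of its log2FC over those 6 fits. Since the libraries are bulk RNA, fewer cells reading a gene and less RNA of it per cell cannot be told apart.

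**Figure D1:**
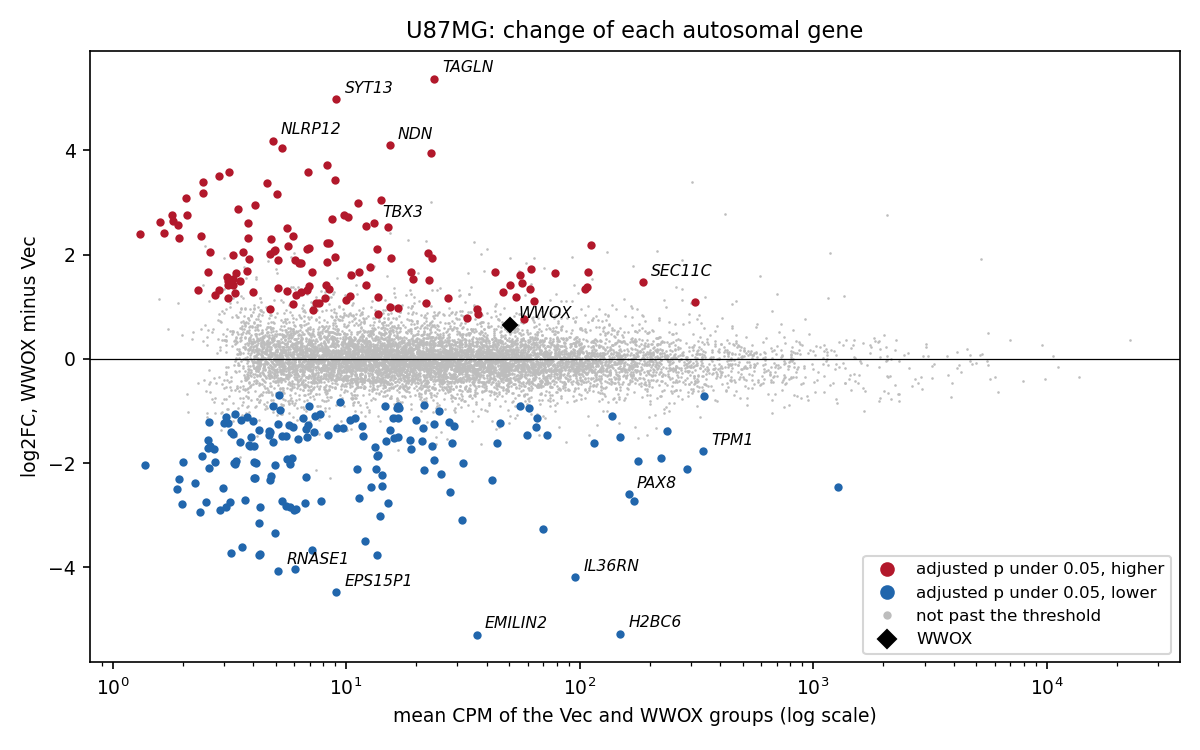
Each point is 1 of 9695 autosomal genes of U87MG, with the mean CPM of the variants on a log axis and log2FC (“WWOX” minus “Vec”) on the other. Red points are the 128 genes higher and blue points the 163 genes lower at an adjusted p under 0.05, and the black diamond is WWOX at 0.66.

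TAGLN, the actin-binding protein transgelin of contractile cells, showed the largest rise. It was read at 0.497, 0.386, and 0.701 CPM in “Vec” and at 81.0, 29.2, and 31.2 CPM in “WWOX” (log2FC 5.38, SE 0.434, adjusted p = 1.5e-08). All “WWOX” libraries lay far above all “Vec” libraries, with “WWOX” 1 the highest. TAGLN (chr11:117199370-117207464, plus strand) overlaps 1 annotated gene on its own strand and 1 on the other. SYT13, a synaptotagmin of vesicle trafficking, had 2 tags over the “Vec” libraries and 26.6, 18.8, and 8.89 CPM in “WWOX,” a ratio of 393 (95% exact interval 108 to 3248). NLRP12, an intracellular receptor that dampens inflammatory signaling, had 3 tags over “Vec” and 9.30, 8.42, and 11.2 CPM in “WWOX,” a ratio of 131 (44.5 to 637). Both genes were thus near silence in every “Vec” library and clearly read in every “WWOX” library.

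NDN, the imprinted growth suppressor necdin, rose from 1.21, 0.850, and 1.61 CPM to 23.7, 30.5, and 34.3 CPM (log2FC 4.10, SE 0.262, adjusted p = 4.0e-10). TNNI3, the cardiac inhibitory troponin, rose from 0.497, 0.309, and 0.631 CPM to 5.26, 10.5, and 24.1 CPM (log2FC 3.58). DNALI1, a light intermediate chain of axonemal dynein, rose from 0.568, 0.386, and 0.912 CPM to 7.83, 8.69, and 12 CPM (log2FC 3.16). The libraries of the variants stayed apart for all of them, a condition for naming genes by size, though TNNI3 varied several-fold within “WWOX.” VSIR, an immune checkpoint protein of the B7 family, had 2 tags over “Vec” and 6.73, 4.89, and 5.34 CPM in “WWOX,” a ratio of 118 (32.3 to 979). ADGRE1, an adhesion G protein-coupled receptor known from macrophages, had 3 tags over “Vec” and 6.49, 6.85, and 5.42 CPM in “WWOX,” a ratio of 87 (29.4 to 424). Other macrophage markers did not accompany it. Of 8 microglia and macrophage markers, PTPRC, AIF1, TYROBP, CX3CR1, and P2RY12 had 0 tags in all libraries, and CD68 and ITGAM stayed under 1 CPM. CSF1R was read in both variants and did not pass (log2FC -0.46, adjusted p = 0.555 in limma). The long noncoding RNAs LINC00839 (log2FC 3.73) and LINC02381 (3.43) rose as well, the latter from 1.14, 1.00, and 1.05 CPM to 18.2, 18.5, and 13.8 CPM.

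EMILIN2, an elastic-fiber glycoprotein of the matrix, showed the largest fall. It was read at 54.9, 84.2, and 71.6 CPM in “Vec” and at 5.38, 0.475, and 0.678 CPM in “WWOX” (log2FC -5.29, SE 0.486, adjusted p = 1.1e-07). “WWOX” 1 kept the most of it but still lay far below every “Vec” library. IL36RN, which blocks the interleukin 36 receptor, fell from 211, 174, and 159 CPM to 18.2, 7.33, and 7.03 CPM (log2FC -4.19, adjusted p = 1.1e-07). RNASE1, a secreted ribonuclease, fell from 9.16, 11.1, and 9.75 CPM to 0.489, 0.136, and 0 CPM (log2FC -4.06, adjusted p = 4.3e-06). ALDH7A1, an aldehyde dehydrogenase of lysine breakdown, fell from 21.6, 27.0, and 28.2 CPM to 1.47, 1.02, and 2.2 CPM (log2FC -3.77). None of these genes had overlapping libraries, which was a condition for naming them by size. GSTM5, a glutathione transferase, fell from 9.80, 13.1, and 12.6 CPM to 0.734, 0.136, and 0.169 CPM (log2FC -4.03), although its close paralogs leave the counting of single genes uncertain. CABP1, a neuronal calcium-binding protein (log2FC -3.66), GDPD3, a lysophospholipase D (-3.60), RINL, a Rab5 exchange factor of endosomes (-3.34), and HSBP1L1 (-3.75) also fell from between 4.10 and 17.3 CPM to under 1 CPM in all “WWOX” libraries. The pseudogene EPS15P1 (-4.48) and the long noncoding RNA LINC00668 (-3.77) fell, but both lost the call with DESeq2.

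**Figure D2:**
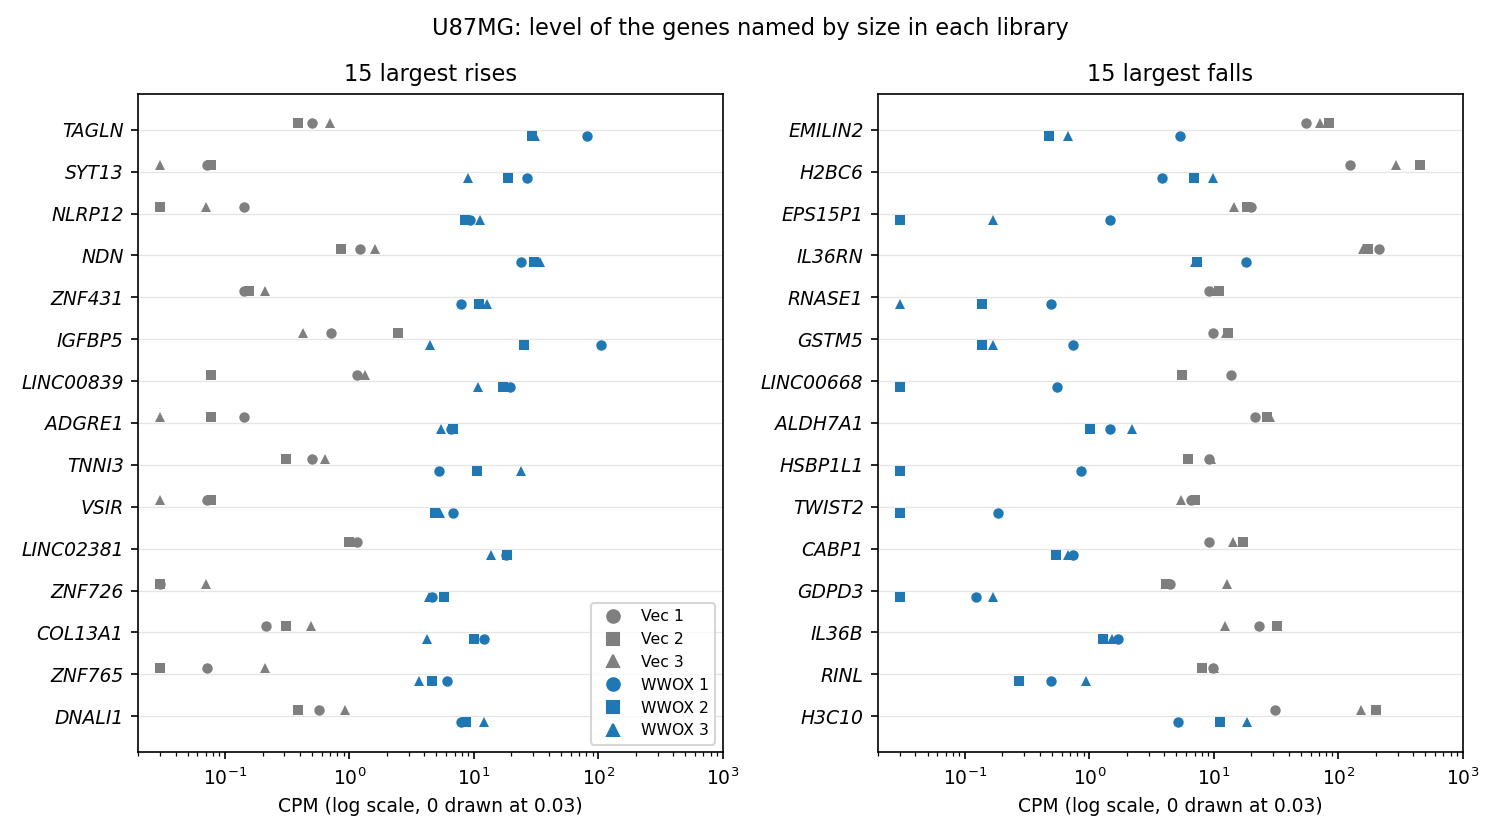
Level of the 15 genes with the largest rises and the 15 with the largest falls in each of the 6 U87MG libraries, in CPM on a log axis with 0 drawn at 0.03. Grey symbols are “Vec” and blue symbols “WWOX.” The genes were chosen for libraries that do not overlap, so the colors do not mix in any row. IGFBP5 spreads from 4.40 to 105 CPM within “WWOX.”

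The contractile genes that serum response factor and its MRTF coactivators control did not move together. Of 23 measured, only TAGLN rose, TPM1 and TPM2 fell, and the median log2FC was 0.18. TPM1, a tropomyosin that stabilizes actin filaments, fell from 380, 637, and 544 CPM to 140, 167, and 159 CPM (log2FC -1.77, SE 0.294, adjusted p = 4.5e-04). TPM2, another tropomyosin, fell from 16.8, 22.1, and 25.8 CPM to 5.32, 2.24, and 4.07 CPM (log2FC -2.45, adjusted p = 2.1e-04). The variants did not overlap for either tropomyosin, so the rise of TAGLN stood beside falls of related actin-binding genes. ACTA2, smooth muscle actin, had 11.6, 13.5, and 11.5 CPM in “Vec” and 33.0, 14.9, and 15.2 CPM in “WWOX,” and did not pass (log2FC 0.60, adjusted p = 0.741).

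Collagen chains moved in both directions. Of 14 measured, COL13A1 rose, COL1A1 and COL1A2 fell, and the median log2FC was -0.36. COL13A1, a membrane-bound collagen of cell adhesions, rose from 0.213, 0.309, and 0.491 CPM to 12.1, 10.1, and 4.23 CPM (log2FC 3.38, SE 0.623, adjusted p = 0.00156). COL1A2, a chain of fibrillar type I collagen, fell from 101, 138, and 76.7 CPM to 57.5, 33.7, and 29.6 CPM (log2FC -1.46, adjusted p = 0.00292), but lost its call with the U87MG libraries alone. Its partner COL1A1 had 157, 500, and 405 CPM in “Vec” and 147, 59.1, and 77 CPM in “WWOX” (log2FC -1.91, adjusted p = 0.0408). That call was lost in 13 of 19 alternatives, among them without “Vec” 2 or 3 or “WWOX” 2 or 3 (log2FC from -2.41 to -1.57), and “Vec” 1 lay close to “WWOX” 1. 

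Laminins are chains of the basement membrane. Among 10 laminin and nidogen genes 3 passed, with LAMA1 and LAMA5 among them as rises, and the median was 0.34. Relative to the “Vec” mean of each gene, the library medians of the list were -0.05, -0.03, and -0.03 in “Vec” and 0.77, 0.33, and 0.15 in “WWOX,” with 8 of 10 genes above 0. LAMA1 rose from 1.92, 0.773, and 0.631 CPM to 6.0, 4.28, and 8.21 CPM (log2FC 2.06, adjusted p = 0.00419). LAMA5 had a log2FC of 1.29 and was lost without “Vec” 1 or 2 or “WWOX” 3 (0.89 to 1.54). Of 14 integrin chains 1 rose, ITGA11, a collagen receptor, with 3 tags over “Vec” and 5.75, 1.97, and 2.88 CPM in “WWOX,” a ratio of 50.4 (16.9 to 247). Its call was lost without “WWOX” 1 (the log2FC ranged from 2.43 to 3.04), and ITGB1, the most widely used partner chain, overlapped between variants (log2FC -0.03).

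Among 32 other matrix glycoproteins 3 fell and 1 rose. FBLN5, a fibulin of elastic fibers, fell from 7.17, 6.03, and 4.42 CPM to 0.489, 0.543, and 0.423 CPM (log2FC -2.75, adjusted p = 3.1e-05). MATN2, a filament-forming matrilin, fell from 16.1, 19.5, and 18.7 CPM to 6.12, 2.71, and 3.73 CPM (log2FC -2.12, adjusted p = 0.00535). With EMILIN2, the glycoproteins that fell thus included a pair of elastic-fiber proteins. EFEMP1, another fibulin, had a log2FC of 1.64, and was lost on leaving out any library except “Vec” 1 (1.34 to 1.84). FN1, fibronectin, varied from 126 to 417 CPM and overlapped between variants (log2FC -0.00, SE 0.489).

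Of 22 proteoglycan genes 4 rose and none fell, against 1.32% higher and 1.68% lower over all genes. LUM, the small leucine-rich proteoglycan lumican, rose from 0.213, 0.0773, and 0.281 CPM to 15.1, 3.73, and 1.36 CPM (log2FC 2.87, adjusted p = 5.1e-04), with no overlap, but lost its call with the U87MG libraries alone. DCN, its relative decorin, had 1.56, 1.16, and 0.772 CPM in “Vec” and 11.4, 5.16, and 1.10 CPM in “WWOX,” where “WWOX” 3 lay within the “Vec” range (log2FC 1.50). DCN was lost without “Vec” 2 or 3 or “WWOX” 1 or 2 (0.86 to 2.28). SDC3, a syndecan, had a log2FC of 1.69 and was lost without “Vec” 2 or 3 or “WWOX” 3 (1.12 to 2.24). AGRN, the basement membrane proteoglycan agrin, had a log2FC of 1.46 and was lost without “Vec” 2 or 3 or “WWOX” 1 or 2 (1.29 to 1.67). LUM, DCN, COL1A1, and COL1A2 are also fibroblast markers, and the summed level of 8 such markers ranged from 282 to 675 CPM in “Vec” and from 133 to 276 CPM in “WWOX,” with COL3A1 and RGS5 under 1 CPM in all libraries. Most of the sum in every library came from COL1A1 and COL1A2, which fell, whereas LUM and DCN rose. Whether fibroblast-like cells had a part in these values was not tested.

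Matrix proteases, their inhibitors, and cross-linking enzymes showed 4 falls and 1 rise among 59 genes, with a median of -0.09. ADAM8, a membrane metalloprotease, fell from 16.4, 26.3, and 24.1 CPM to 6.73, 7.74, and 7.62 CPM (log2FC -1.57, adjusted p = 5.5e-04), but not with a pseudocount of 0.1 or in edgeR. PCOLCE2, an enhancer of procollagen processing, had a log2FC of -1.94 and was lost without “Vec” 2 or “WWOX” 2 (-2.05 to -1.76). ADAMTSL1 had -1.29 and was lost on leaving out any library except “Vec” 1 (-1.43 to -1.22). ADAMTS5, an aggrecanase, had a log2FC of 1.94, with “Vec” 1 at 25.4 CPM inside the “WWOX” range of 21.7 to 55.3 CPM, and was lost without “Vec” 2 or 3 or “WWOX” 1 or 2 (1.46 to 2.77).

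**Figure D3:**
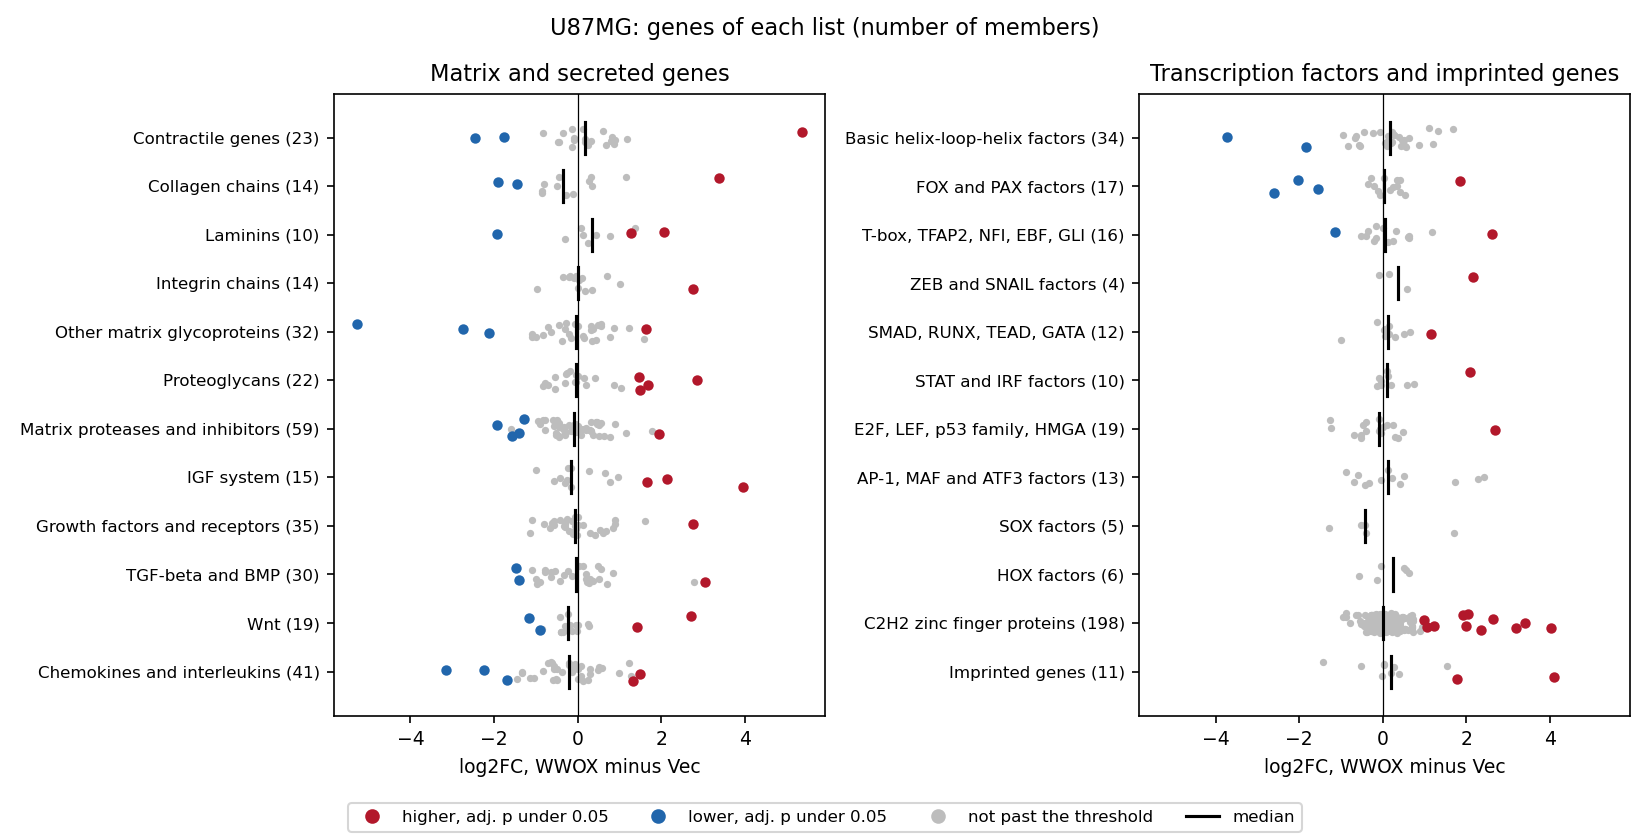
Log2FC (“WWOX” minus “Vec”) of the genes in 12 lists of matrix and secreted genes and in 12 lists of transcription factors and imprinted genes, 1 point per gene, with the number of members in parentheses. Red and blue points passed an adjusted p of 0.05, grey points did not, and a black bar marks the median of each list. The bars lie between -0.43 (SOX factors) and 0.36 (ZEB and SNAIL factors), and the genes that passed lie farther out.

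Of 35 ligands and receptors of the FGF, EGF, PDGF, and VEGF type 1 passed (2.86%, near the 3.0% of all genes). HGF, the ligand of the MET receptor, rose from 1.42, 2.55, and 1.96 CPM to 26.1, 16.4, and 10.3 CPM (log2FC 2.76, SE 0.373, adjusted p = 3.2e-05). No library of one variant overlapped the other. In the insulin-like growth factor system, 3 of 15 genes rose, all binding proteins that hold the factors outside the cell. IGFBP1 rose from 1.14, 2.01, and 2.24 CPM to 24.4, 6.92, and 5.08 CPM (log2FC 2.13, adjusted p = 4.5e-04), but lost its call with the U87MG libraries alone. IGFBP5 rose from 0.710, 2.47, and 0.421 CPM to 105, 25.2, and 4.40 CPM (log2FC 3.96, adjusted p = 0.0256), and was lost without “Vec” 1 or 3 or “WWOX” 1 or 2 (2.92 to 5.08). IGFBP4 had a log2FC of 1.66 and was lost on leaving out any library except “Vec” 2 (1.15 to 1.99).

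In the Wnt list 2 of 19 genes rose and 2 fell, with a median of -0.23. SFRP2, a secreted protein that binds Wnt ligands, rose from 3.05, 3.01, and 1.12 CPM to 18.5, 18.7, and 16.9 CPM (log2FC 2.72, adjusted p = 1.3e-06), and its “WWOX” libraries lay close together. RSPO3, which amplifies Wnt signaling, had a log2FC of 1.42 and lost its call without “Vec” 3 (1.13 to 1.83), its “Vec” 2 at 8.81 and “WWOX” 3 at 8.98 CPM overlapping after scaling of the libraries. DKK3, a Dickkopf family member, had a log2FC of -0.91 and was lost without “Vec” 1 or 2 or “WWOX” 2 or 3 (-1.06 to -0.79). AXIN2, a negative feedback target of the pathway, had -1.17 and was lost on leaving out any library except “Vec” 1 (-1.48 to -1.01). In the list of TGF-beta and BMP genes 1 of 30 rose, INHBE, an activin subunit and stress-responsive gene, from 7.46, 1.16, and 1.33 CPM to 16.0, 28.7, and 30.3 CPM (log2FC 3.05, adjusted p = 0.00666). INHBE was lost without “Vec” 2 or 3 (2.65 to 3.80), and “Vec” 1 was the highest of its group. In the same list 2 genes fell, among them TGFB3, a ligand, with a log2FC of -1.47 that was lost on leaving out any library except “Vec” 1 (-1.74 to -1.16). None of 11 Notch genes passed, HEY1 (log2FC 1.32, adjusted p = 0.183) and LFNG (-1.64, adjusted p = 0.279) having the smallest p.

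Of 41 interleukins, chemokines, and NF-kB response genes 3 fell and 2 rose, with a median of -0.20. IL24, an interleukin of the IL-10 family, fell from 10.0, 5.80, and 7.93 CPM to 0.428, 1.02, and 0.169 CPM (log2FC -3.15, adjusted p = 1.6e-06). CXCL1, a neutrophil-attracting chemokine, fell from 9.23, 6.95, and 8.28 CPM to 1.71, 1.43, and 1.10 CPM (log2FC -2.25, adjusted p = 2.4e-05). Neither gene had a “WWOX” library near the “Vec” range. IL1B, interleukin 1 beta, fell from 36.0, 19.9, and 51.8 CPM to 13.2, 12.5, and 7.03 CPM (log2FC -1.68, adjusted p = 0.0173), and was lost without “Vec” 3 or “WWOX” 3 (-2.04 to -1.43). ACKR3, a scavenging chemokine receptor, rose from 1.07, 1.62, and 1.26 CPM to 6.18, 2.85, and 5.76 CPM (log2FC 1.49), but not with the U87MG libraries alone. TNFAIP6, a hyaluronan-binding protein, had 1.33 and was lost without “Vec” 2 or 3 or “WWOX” 2 (1.07 to 1.79). NFKBIA, the inhibitor and target of NF-kB, had 114, 206, and 153 CPM in “Vec” and 34.1, 68.6, and 83.5 CPM in “WWOX,” without passing (log2FC -1.45, adjusted p = 0.234).

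IL1B lies in a stretch of chromosome 2 (chr2:112829751-113278921) in which 6 of the 7 genes measured fell and the other lay below 0, a region singled out after its values were seen. IL36B, an interleukin 36 agonist, fell from 23.1, 32.4, and 12.4 CPM to 1.71, 1.29, and 1.52 CPM (log2FC -3.50), and its neighbor IL36RN is given above. PAX8, a paired box factor of thyroid and kidney development, fell from 297, 207, and 316 CPM to 65.5, 64.3, and 23.5 CPM (log2FC -2.59, SE 0.396, adjusted p = 1.8e-04). PAX8-AS1, its antisense RNA, fell by 1.59 on the log2 scale, and as the use of strand in the counting is not given in the sources used here, tags of the pair may be mixed. PSD4, an ARF6 exchange factor, had a log2FC of -1.87 and was lost on leaving out any one library (-1.96 to -1.74). The median log2FC of the stretch was -1.87. With a window of 500 kb, there were 6 stretches with at least 3 genes called, holding 22 of the 291 genes, and in 4 of them all called genes moved one way. Another of these lies at chr19:53389793-54370558, where ZNF765, NLRP12, MYADM, and LAIR1 rose, the latter pair chosen after their values were seen, and 11 of 13 genes lay above 0. LAIR1, an inhibitory collagen receptor of leukocytes, had 0 tags in “Vec” and rose at least 32.7-fold over the limit of 3 tags.

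Transcription factors with large changes came from several families. The mesodermal basic helix-loop-helix factors TWIST1 and TWIST2, which drive mesenchymal programs, both fell, and no other of 34 factors of this family passed. TWIST2 fell from 6.53, 7.03, and 5.47 CPM to 0.184, 0, and 0 CPM, with 3 tags left over “WWOX,” a ratio of 90.4 (30.6 to 441). TWIST1 fell from 16.7, 29.0, and 18.9 CPM to 4.89, 5.63, and 6.86 CPM (log2FC -1.84, SE 0.249, adjusted p = 3.1e-05). Neither factor overlapped between variants. SNAI1, a related inducer of mesenchymal transition, moved the other way with 4.26, 0.541, and 1.19 CPM in “Vec” and 11.9, 5.56, and 10.4 CPM in “WWOX” (log2FC 2.17, adjusted p = 0.0112), though its call was lost without “Vec” 2 or 3 or “WWOX” 1 or 3 (1.69 to 2.82). Of 37 mesenchymal glioblastoma markers, 3 passed, all lower and COL1A1 and COL1A2 among them, and CD44 stayed between 678 and 992 CPM (log2FC -0.04).

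TBX3, a T-box repressor of development, rose from 4.12, 2.16, and 3.23 CPM to 25.5, 14.4, and 29.5 CPM (log2FC 2.61, SE 0.307, adjusted p = 4.3e-06). IRF5, an interferon regulatory factor, rose from 1.85, 1.16, and 1.61 CPM to 7.16, 7.74, and 10.2 CPM (log2FC 2.09, adjusted p = 4.6e-04). E2F7, a repressor of E2F target genes, rose from 1.78, 1.47, and 2.67 CPM to 15.1, 14.4, and 16.7 CPM (log2FC 2.68, adjusted p = 0.00944), but was lost without “Vec” 2 (2.54 to 2.83). In each case every “WWOX” library lay above every “Vec” library. FOXC1, a forkhead factor of mesenchyme, rose from 4.33, 1.62, and 1.33 CPM to 16.6, 6.79, and 7.11 CPM (log2FC 1.84), but not with the U87MG libraries alone, and SMAD2, a transducer of TGF-beta signals, rose from 19.2, 13.1, and 16.6 CPM to 46.5, 36.1, and 32.9 CPM (log2FC 1.16) and was lost without “Vec” 2 (1.03 to 1.29). Besides PAX8, the forkhead factors FOXS1 (-2.03) and FOXP4 (-1.56) and the GLI-like factor GLIS3 (-1.14) fell. FOXS1 was lost with the U87MG libraries alone, edgeR, and DESeq2, FOXP4 without “Vec” 2 or “WWOX” 1 (-1.89 to -1.25), and GLIS3 without “Vec” 2 or 3 (-1.39 to -0.97). SOX9, a SOX factor of glial progenitors, had 3.48, 1.70, and 3.93 CPM in “Vec” and 12.5, 7.53, and 13.6 CPM in “WWOX” and did not pass (log2FC 1.70, adjusted p = 0.0831), and SOX4 had -1.28 (adjusted p = 0.141).

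No gene passed among 13 AP-1 and MAF factors, 20 immediate early factors, 5 SOX, 6 HOX, 29 other homeobox, 13 KLF and SP, and 12 ETS factors, 21 nuclear receptors, and 27 factors of the CEBP, ATF, CREB, NFAT, and MEF2 families. The smallest p in the last list belonged to NFATC4, a calcium-regulated factor, at 3.98, 5.49, and 4.63 CPM in “Vec” and 1.84, 1.90, and 1.86 CPM in “WWOX” (log2FC -1.19, adjusted p = 0.0580). FOS, an immediate early AP-1 subunit, had 25.1, 1.62, and 3.02 CPM in “Vec” and 44.6, 10.6, and 47.3 CPM in “WWOX” (log2FC 2.27, adjusted p = 0.107), its “Vec” 1 again inside the “WWOX” range. FOSB, its relative, had a log2FC of 2.42 (adjusted p = 0.130).

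C2H2 zinc finger proteins, most of them repressors that bind transposon-derived sequence, made up 11 of the 128 rises. Of 198 measured, 11 rose and none fell, against 1.32% higher and 1.68% lower over all genes, while the list median was 0.01. ZNF431 rose from 0.142, 0.155, and 0.210 CPM to 7.83, 10.9, and 12.7 CPM (log2FC 4.04, SE 0.317, adjusted p = 9.4e-09). ZNF726 had 1 tag over “Vec” and 4.59, 5.70, and 4.32 CPM in “WWOX,” a ratio of 202 (35.9 to 8021). ZNF765 rose from 0.0710, 0, and 0.210 CPM to 6.06, 4.61, and 3.64 CPM (log2FC 3.18). These genes were close to silent in all “Vec” libraries. ZNF528, which has an antisense RNA on the other strand, rose from 0.355, 0, and 0 CPM to 5.63, 3.19, and 1.69 CPM (log2FC 2.64), ZNF138 from 1.07, 1.24, and 2.67 CPM to 9.85, 10.0, and 10.8 CPM (2.35), and ZNF558 from 0.568, 0.618, and 0.912 CPM to 3.67, 5.16, and 4.74 CPM (2.05). ZNF329 (1.92) and the pseudogene ZNF56P (1.99) kept their call in all alternatives too. ZNF431, ZNF726, ZNF765, ZNF528, ZNF558, ZNF329, and ZNF56P lie on chromosome 19, where the median over all its genes lay at -0.01 relative to the rest. The remaining calls were ZFP90 (1.22, lost without “Vec” 1 or 3 or “WWOX” 1 or 3, 1.01 to 1.46), ZNF521 (1.05, lost without “Vec” 2 or “WWOX” 1, 0.83 to 1.18), and ZNF131 (0.99, lost on leaving out any library except “WWOX” 3, 0.79 to 1.15). Near-identical copies in this family leave the counting of single members uncertain. Without “Vec” 1 the list had 9 genes higher and 1 lower.

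Among 11 imprinted genes, NDN and DIRAS3 rose and none fell. DIRAS3, a growth-suppressing small GTPase, rose from 9.44, 3.01, and 4.35 CPM to 24.8, 19, and 14.8 CPM (log2FC 1.77, adjusted p = 0.00576), and was lost without “Vec” 2 (1.46 to 2.21). PHLDA2, a growth-limiting imprinted gene, had a log2FC of 1.53 and did not pass (adjusted p = 0.0811), and MEST had -1.44 (adjusted p = 0.130). MKRN3, which neighbors NDN in the imprinted region of chromosome 15 and was chosen after its values were seen, had 0.19.

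Surface molecules changed singly. Among 14 cadherins, PCDHB10, a clustered protocadherin, rose from 0.284, 0.232, and 0.281 CPM to 5.93, 2.58, and 2.29 CPM (log2FC 2.32, adjusted p = 0.00160), and CDH23, the cadherin of sensory hair cells, fell from 3.48, 7.11, and 3.09 CPM to 0.122, 0.136, and 0.254 CPM (log2FC -2.93, adjusted p = 5.8e-07). VSIR, which rose, lies on the opposite strand within CDH23 (chr10:71396920-71815947). CDH15 had a log2FC of 2.95 and was lost without “Vec” 2 or 3 or “WWOX” 1 or 2 (2.55 to 3.63). CLDN14, a claudin of tight junctions, fell from 8.10, 14.4, and 10.1 CPM to 1.59, 0.747, and 1.02 CPM (log2FC -2.89, adjusted p = 1.4e-07), and GJB2, a connexin, from 14.9, 59.5, and 33.7 CPM to 7.65, 5.97, and 7.62 CPM (log2FC -2.13), the latter lost without “Vec” 2 (-2.65 to -1.65). PTGER4, a prostaglandin E receptor, rose from 3.05, 3.48, and 2.60 CPM to 13.3, 9.43, and 10.8 CPM (log2FC 1.67, adjusted p = 0.00156). Its “WWOX” libraries all lay above 9 CPM and its “Vec” libraries below 4. ABCC2, a multidrug efflux pump, was the only one of 18 ABC transporters and of 37 NRF2-related genes to pass, and fell from 23.8, 13.8, and 22.1 CPM to 3.67, 2.24, and 2.63 CPM (log2FC -2.66, adjusted p = 1.5e-05). Among 131 solute carriers 3 rose and 1 fell (3.05%, near the 3.0% of all genes), among them SLC27A5, a bile acid and fatty acid ligase (log2FC 1.54, lost without “Vec” 3 or “WWOX” 2 or 3, 1.43 to 1.66).

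Further calls in these lists were weaker. CLIC3, a chloride channel protein, rose (1.67, lost in edgeR), and KCNJ15, a potassium channel, fell (-1.11, lost in 7 alternatives). S1PR1, a sphingosine phosphate receptor, had 1.86 with “Vec” 1 at 8.81 and “WWOX” 2 at 8.89 CPM, which overlapped after scaling, and was lost on leaving out any library except “Vec” 1 (1.36 to 2.60), and ADRA1B, an adrenergic receptor, had -1.31 and was lost without “Vec” 2 or 3 or “WWOX” 2 (-1.50 to -1.16). CLDN7 had 1.41 and was lost without “Vec” 2 or 3 or “WWOX” 2 or 3 (1.06 to 1.95). DPYSL3, a collapsin response mediator of axon guidance, had 0.95 (0.82 to 1.09) and SLC6A17, a vesicular amino acid transporter, -0.69 (-0.74 to -0.65), and both were lost on leaving out any one library. SLC6A15, an amino acid transporter, had 1.51 and was lost without “Vec” 2 or 3 or “WWOX” 1 or 2 (1.14 to 1.94), and SLC48A1, a heme transporter, had 1.29 and was lost on leaving out any library except “Vec” 1 (1.04 to 1.68). HSPB6, a small heat shock protein, fell from 52.3, 61.4, and 29.5 CPM to 7.83, 5.63, and 10.1 CPM (log2FC -2.56, adjusted p = 3.1e-05), the only call among 26 heat shock genes. MT1G, a metallothionein, had -2.87 with “Vec” 3 at 1.33 and “WWOX” 1 at 1.53 CPM, and was lost without “Vec” 1 or 2 or “WWOX” 2 or 3 (-3.96 to -2.06). CTSO, a lysosomal cathepsin, had -1.54 and was lost without “Vec” 2 or “WWOX” 2 (-1.73 to -1.24), and no other of 39 lysosomal genes passed. F3, tissue factor, had -1.61 (-2.26 to -1.25) and NUAK2, a kinase, -1.41 (-1.65 to -1.20), both YAP and TAZ targets lost on leaving out any library except “Vec” 1, whereas CCN2, the standard target of these coactivators, had 1.59 (adjusted p = 0.387).

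The integrated stress response, in which ATF4 drives amino acid synthesis and transport genes, differed as much within “Vec” as between variants. None of 39 genes passed, though 35 lay above 0 and the median log2FC was 0.86. The median over the list stood at 1.12 in “Vec” 1, -0.60 in “Vec” 2, and -0.49 in “Vec” 3, and at 1.40, 0.76, and 0.52 in the “WWOX” libraries, relative to the “Vec” mean of each gene. “Vec” 1 thus lay among the “WWOX” libraries. ATF4 itself had 436, 102, and 109 CPM in “Vec” and 501, 347, and 305 CPM in “WWOX” (log2FC 1.08, adjusted p = 0.566), and GDF15, a secreted stress cytokine, 506, 23.5, and 53.3 CPM and 886, 469, and 577 CPM (2.78, adjusted p = 0.179). Without “Vec” 1, 4 genes of the list passed, all higher, and its median was 1.40. Genes of endoplasmic reticulum chaperones and the unfolded protein response followed a similar order, with “Vec” 1 at 0.52 and the “WWOX” libraries at 1.15, 0.34, and -0.02. Their median log2FC was 0.47, 39 of 43 lay above 0, and SEC11C, a subunit of the signal peptidase, was the only one to pass. SEC11C rose from 105, 78.7, and 96.6 CPM to 397, 220, and 222 CPM (log2FC 1.47, adjusted p = 0.0303), and was lost on leaving out any library except “Vec” 1 (1.22 to 1.59). HSPA5, the chaperone BiP, ranged from 341 to 6850 CPM in “Vec” and from 2985 to 15655 CPM in “WWOX” (log2FC 1.91, adjusted p = 0.571).

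Cholesterol synthesis and uptake genes had a median of 0.56, with 19 of 20 above 0 and 8 without overlap between variants (against 16.9% of all genes), and 2 passed. HMGCS1, the synthase at the entry of the pathway, rose from 24.9, 39.5, and 20.3 CPM to 103, 106, and 79.4 CPM (log2FC 1.73, adjusted p = 0.0173), and was lost without “Vec” 1 or 3 or “WWOX” 1 or 2 (1.47 to 2.02). MVD, a decarboxylase of the same pathway, rose from 56.8, 33.8, and 21.9 CPM to 75.4, 141, and 141 CPM (log2FC 1.64), and was lost without “Vec” 2 or 3 or “WWOX” 2 or 3 (1.26 to 2.0). The library medians of the list were 0.06, 0.19, and -0.37 in “Vec” and 0.35, 0.77, and 0.67 in “WWOX,” with no overlap. Of 29 fatty acid synthesis genes, ELOVL7, an elongase, passed (1.22, lost on leaving out any library except “Vec” 1, 0.97 to 1.53).

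Cell cycle genes did not pass. All 47 genes of DNA replication and S phase lay at or below 0, with a median of -0.50, and 40 of 54 genes of G2 and mitosis lay at or below 0, with a median of -0.13. The S phase list stood at -0.87 in “Vec” 1, 0.48 in “Vec” 2, and 0.36 in “Vec” 3, and at -1.06, -0.19, and -0.27 in “WWOX,” so that “Vec” 1 lay within the “WWOX” range. PCNA, the sliding clamp of replication, had 36.9, 114, and 93.2 CPM in “Vec” and 41.7, 73.4, and 50.8 CPM in “WWOX” (log2FC -0.50, adjusted p = 0.905). Without “Vec” 1 the median of the S phase list was -0.97 and 1 gene passed, and that of the mitotic list was -0.73 with none.

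Replication-dependent histones, which are read in S phase, had 5 falls among 52 genes, no rise, and a median of -0.52. H2BC6 fell from 124, 458, and 294 CPM to 3.85, 6.99, and 9.91 CPM (log2FC -5.27, SE 0.560, adjusted p = 1.0e-06) and was called in all alternatives. H4C13 fell from 276, 616, and 483 CPM to 55.4, 103, and 196 CPM (log2FC -2.12, adjusted p = 5.4e-04), but not with the U87MG libraries alone. H3C10 (-3.26, from -4.08 to -2.73), H4C4 (-2.45, from -3.23 to -1.61), and H3C6 (-1.99, from -2.51 to -1.42) were each lost without “Vec” 2 or 3 or “WWOX” 1 or 2. The fall of H2BC6 was far larger than the median of the list, whose library medians ranged from -1.0 to 0.91 in “Vec” and from -1.75 to 0.22 in “WWOX.” Histone genes are near-identical copies, so tags of single members are uncertain.

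**Figure D4:**
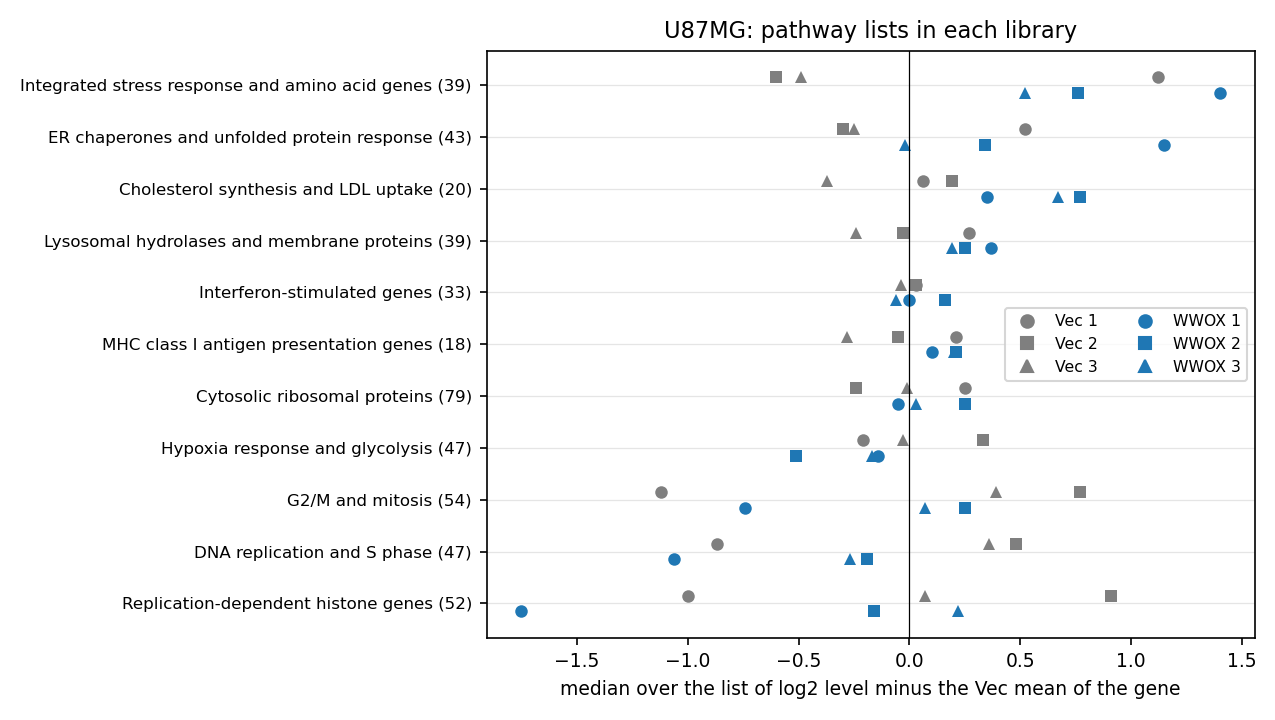
Median over each of 11 pathway lists of the log2 level of its genes minus their “Vec” mean, in each of the 6 U87MG libraries (grey “Vec,” blue “WWOX,” number of genes in parentheses). “Vec” 1 (grey circle) lies with the “WWOX” libraries for the stress response at 1.12 and for S phase at -0.87, whereas the cholesterol list has its “WWOX” libraries from 0.35 to 0.77 above all “Vec” libraries.

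Other stress and immune lists held few or no calls. None of 33 interferon-stimulated genes (median 0.12), 18 MHC class I genes (0.15), or 47 hypoxia and glycolysis genes (-0.29) passed. EGLN3, an oxygen-sensing hydroxylase, came nearest in the last list, with 0.284, 1.00, and 0.421 CPM in “Vec” and 3.55, 2.85, and 6.86 CPM in “WWOX” (log2FC 2.16, adjusted p = 0.0585). Of 34 p53 targets, 2 passed, PMAIP1 among them as a rise, and CDKN1A, the cell cycle inhibitor p21, overlapped between variants (log2FC 0.34). PMAIP1, the pro-apoptotic BH3-only protein NOXA, rose from 38.8, 9.89, and 16.3 CPM to 91.8, 42.5, and 61.7 CPM (log2FC 1.66, adjusted p = 0.0118), and was lost without “Vec” 2 or 3 or “WWOX” 1 (1.24 to 2.2). HRK, another BH3-only protein, rose from 1.99, 1.31, and 1.75 CPM to 5.63, 3.94, and 4.15 CPM (log2FC 1.17), was lost without “Vec” 2 (1.05 to 1.28), and with PMAIP1 was the only call among 29 apoptosis genes. No gene passed among 79 ribosomal proteins, 55 respiratory chain subunits, 28 MAPK feedback genes, 16 S100 and annexin genes, and 36 small nucleolar host and glioma noncoding RNAs. SNHG22, a small nucleolar host gene on chromosome 18, had 295, 248, and 272 CPM in “Vec” and 553, 871, and 1308 CPM in “WWOX” without passing (log2FC 1.60, adjusted p = 0.0511).

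Chromosome 18 lay farthest from the rest. The median log2FC of its 144 genes lay 0.38 above that of all genes, 72.9% of them lay above the median of all genes, and 16 rose and 5 fell at the adjusted threshold. The shift was 0.69, 0.36, and 0.28 in the “WWOX” libraries and 0.01, -0.10, and 0.03 in the “Vec” libraries. It was thus present in every “WWOX” library, and it was 0.42 without “Vec” 1. The same median was 0.18 in DBTRG-05MG, 0.08 in T98G, and -0.08 in U251MG. SMAD2, SEC11C, PMAIP1, LAMA1, and ZNF521, which rose, lie on this chromosome and are to be read beside its shift, whereas EMILIN2, HSBP1L1, and LINC00668 fell on it. Chromosome 5 lay at 0.16, with 14 genes higher and 5 lower, PTGER4, PCDHB10, and HMGCS1 among the former, and chromosome 7 at -0.12, and the other autosomes lay between -0.10 and 0.07.

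**Figure D5:**
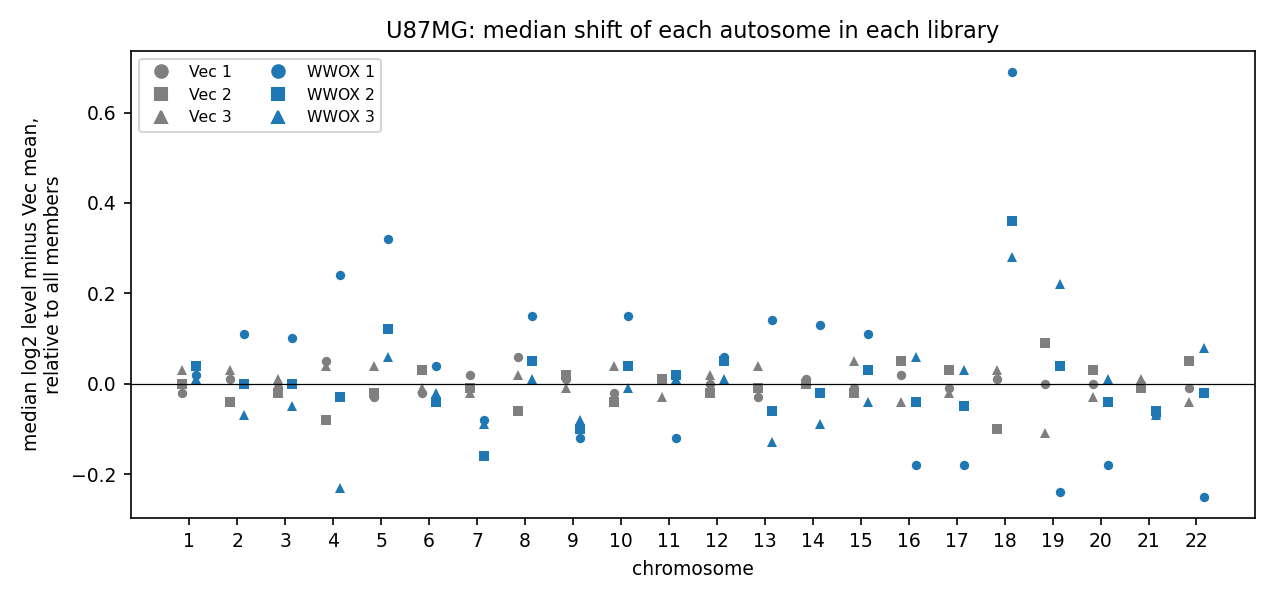
Median over the genes of each autosome of the log2 level minus the “Vec” mean, relative to the median of all genes, in each U87MG library (grey “Vec,” blue “WWOX”). Chromosome 18 lies at 0.28 to 0.69 in the 3 “WWOX” libraries and between -0.10 and 0.03 in the “Vec” libraries.

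The change in U87MG was set against the mean change in T98G, U251MG, and DBTRG-05MG within the same model. The difference passed in 212 genes (2.19%), of which 185 were among the 291. Of the 30 genes named by size, 27 differed. The 291 and the 30 were chosen by their U87MG change, which is part of the difference, so these counts are no separate evidence. TAGLN rose in DBTRG-05MG too (log2FC 4.36) but not in T98G (-1.05) or U251MG (0.09). RNASE1 had -3.95 in U251MG and -2.22 in DBTRG-05MG beside -4.06 in U87MG, and its difference did not pass (adjusted p = 0.0782). The difference did not pass for IGFBP5 (adjusted p = 0.212) or H3C10 (0.299) either. NDN had 1.35 in DBTRG-05MG, -0.64 in T98G, and -0.07 in U251MG, against 4.10 in U87MG (adjusted p of the difference 1.5e-08). EMILIN2 had between 0.15 and 0.83 in the other lines against -5.29 (5.1e-07). For WWOX the log2FC was 0.39 in DBTRG-05MG, 0.38 in T98G, and -0.01 in U251MG, and the difference of U87MG, 0.41 with an SE of 0.256, did not pass (adjusted p = 0.739).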

How the data were processed

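Total RNA of 24 glioblastoma cell line libraries, 3 in each of 8 groups, was profiled with CAGE-Seq. Alignment by the authors used STAR and the hg38 build, and tags counted with SAMtools-based tools were deposited as CPM per gene, with limma 3.42 also named in the submitters' processing notes. The annotation and the use of strand in the counting are not given in the sources used here. All deposited CPM values were whole multiples of 1 tag (tolerance 0.01 tags), which recovered the tags. GENCODE 44 lacked 4 genes of the table.

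Genes with 5 CPM in at least 1 of the 24 libraries (12327) entered limma 3.58.1 (R 4.3.3) with a mean-dependent prior on log2(CPM + 0.5) after trimmed mean of M-values scaling, with 8 groups and 16 residual degrees of freedom. P-values were adjusted by the Benjamini-Hochberg method over the 12327 genes at a threshold of 0.05 and measure only the spread between these libraries. The median SE was 0.316. Scripts were tested on simulated tags. Alternatives changed the pseudocount, filter, scaling, libraries, or covariates, or used edgeR 4.0.16, DESeq2 1.42.0, or limma-voom on the recovered tags.

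Named were WWOX, the 15 largest rises and falls without overlap, each called gene of a list, the 2 smallest p where a list had no call, and the central gene of a list, except that some genes are not reported here. Members and lists were chosen with earlier results of these data known. The exact ratio intervals are at the 95% level.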

Additional observations from a re-analysis of the deposited data

Results flagged for a closer look

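The genes below changed in U87MG differently from the mean of T98G, U251MG, and DBTRG-05MG at an adjusted p under 0.05 (limma, contrast within the model of 8 groups), as did 212 of the 9695 genes. Values are the log2FC of U87MG minus the mean log2FC of the other lines. The genes were named for the size of their U87MG change, which is part of this value, so passing is no separate evidence.

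Among the rises, the difference was 4.24 for TAGLN, 5.16 for SYT13, 4.13 for NLRP12, 3.89 for NDN, 4.29 for ADGRE1, 3.12 for TNNI3, 3.14 for VSIR, and 3.20 for DNALI1. The zinc finger genes ZNF431, ZNF726, and ZNF765 differed by 3.98, 3.51, and 3.18. COL13A1 differed by 3.87, and the noncoding RNAs LINC00839 and LINC02381 by 3.88 and 4.23. For TAGLN the mean of the other lines joins a rise in DBTRG-05MG with a value below 0 in T98G, so its difference describes no single line.

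Among the falls, EMILIN2 differed by -5.68, H2BC6 by -4.70, and the pseudogene EPS15P1 by -4.62. IL36RN differed by -4.04 and IL36B by -3.50. TWIST2 differed by -3.33, ALDH7A1 by -3.71, GSTM5 by -4.02, CABP1 by -3.60, GDPD3 by -3.57, RINL by -3.19, HSBP1L1 by -4.26, and LINC00668 by -3.74.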

How the results depend on the processing

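No call of a named gene changed direction under those of the 19 alternatives that tested it, and the shift of chromosome 18, whose repeats were added after seeing the data, kept its direction in all of them (0.31 to 0.52 with a library left out). Requiring a mean of 5 CPM left 155 genes called (76 higher, 79 lower), 97 differing from the other lines, and 57 in the lists, against 291 (128 and 163), 212, and 96. The U87MG libraries alone, with 4 residual degrees of freedom, gave 169 (75 and 94) and 57 in the lists, 153 of the 169 being among the 291. A correction for GC content and length gave 196 higher and moved WWOX to 0.60, past the threshold (adjusted p = 0.0330 in limma). WWOX passed in no other alternative. The difference from the other lines was called in 112 genes with edgeR and 139 with limma-voom. The causes were not tested, except that the mean filter keeps fewer genes and the U87MG fit fewer libraries. Leaving out 1 library gave from 174 to 361 calls, 74 to 172 higher, 98 to 189 lower, 138 to 243 differing, and 55 to 112 in the lists. The lowest totals came without “Vec” 2 (174) or “Vec” 3 (176), and WWOX ranged from 0.60 to 0.71. Without “Vec” 1, 255 of the 361 calls were among the 291.

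With the replicate number as a block, 229 genes were called (104 higher, 125 lower), 220 of them among the 291. Whether the numbers pair the libraries was left undecided. The deviations of same-numbered libraries correlated at 0.3646, 0.2352, and -0.1512 over genes. “Vec” 1 and “WWOX” 1 correlated best with each other, whereas “Vec” 2 correlated best with “WWOX” 3 (0.3530). With 3 libraries per variant, deviations from the group means are tied to each other, so these values cannot decide it. A level under 0.254 CPM is below 3 tags in the shallowest library, so single values beneath it are uncertain. Pooled over the 3 libraries of a variant, 3 tags correspond to 0.0727 CPM in “Vec” and 0.0700 CPM in “WWOX.” Changes beneath these pooled levels were not detectable.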

Other observations

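Of the 22 long noncoding RNAs that changed, 13 fell and 9 rose, and those named here beyond LINC00839 and LINC02381 were chosen after their values were seen. FIBCD1-AS1 fell from 6.46, 5.49, and 8.91 CPM to 1.96, 0.679, and 0.847 CPM (log2FC -2.29, adjusted p = 1.2e-07 in limma). ZNF594-DT fell from 5.40, 4.95, and 6.52 CPM to 1.16, 1.09, and 1.19 CPM (log2FC -1.96, adjusted p = 5.5e-05 in limma). Both kept their call under the 18 alternatives that tested them, as did EVA1A-AS (-2.31) under 17. Each overlaps at least 1 gene on the other strand, and tags of such pairs may be mixed. ZNF528-AS1 had 1 tag over the “Vec” libraries and 6.18, 1.56, and 1.78 CPM in “WWOX,” beside the rise of ZNF528 on the opposite strand.

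Genes that U87MG “Vec” nearly lacked but another line read strongly were looked at in the “WWOX” libraries. Whether any library held reads of another line was not tested. Of the genes with at most 3 tags over the “Vec” libraries and at least 20 CPM in every library of T98G, 3 of 26 exceeded 1 CPM in a “WWOX” library. The same count was 1 of 30 for U251MG and 3 of 56 for DBTRG-05MG. For T98G, U251MG, and DBTRG-05MG, the median sum was 1.0, 2.0, and 1.0 tags over the “WWOX” libraries. Over the “Vec” libraries, where the genes were chosen to be low, it was 1.5, 2.0, and 1.0 tags.

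MBP, the myelin basic protein gene, had 0, 0.0773, and 0.0701 CPM in the “Vec” libraries and 3.24, 2.71, and 1.19 CPM in “WWOX,” but stayed under 5 CPM and was outside the comparison.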
